A study of Macaca mulatta with 5 samples.

Results

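The genes described here were expressed at similar relative levels in 5 tissues of rhesus macaque (Macaca mulatta), with 725 members among 28633 genes that carried a gene identifier. Each gene was represented by its transcript with the largest RPKM sum over the tissues, where RPKM is a read count corrected for exon length and for how many reads of the library were mapped. RPKM was divided by the upper quartile of the same library, computed over transcripts with reads, and a gene was kept at 5 RPKM or more in every tissue with a ratio of the highest to the lowest scaled value of 2 or less. The members were therefore chosen on their own levels and ratios, so these values are given as a description with no test.

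Poly(A)-positive RNA of cerebellum, kidney, lung, heart and spleen from male animals was sequenced with a strand-specific dUTP protocol. Each tissue had 1 library and no treatment. Cerebellum, kidney, lung and heart are described in the study as tissues of the same animal, and the animal of the spleen is not stated. Whole tissues were used, so fewer cells of a type and less RNA per cell cannot be told apart. With 1 library per tissue, no difference between tissues was tested. Intervals of ratios given below cover read-counting error only. Intervals of medians and shares treat genes as independent draws, and no interval covers variation between animals.

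Genes that every cell needs are often called housekeeping genes. They include the machines that splice RNA, start translation, fold proteins, move cargo between the endoplasmic reticulum and the Golgi apparatus, and degrade proteins marked with ubiquitin. Such genes are often used as references in expression measurements, although many of them change with the energy demand or the division rate of a tissue.

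Properly mapped reads ranged from 48306898 in kidney to 81517974 in cerebellum, and the reads listed for transcripts, summed with those that overlapping transcripts share, amounted to between 47.9% of them in heart and 91.5% in lung. The upper quartile used for scaling was 3.99 RPKM in heart and between 7.04 and 9.85 RPKM in the other tissues. The tissue labels were checked with marker genes, and 30 of the 31 markers found were highest in the tissue they mark. The exception was CALB1, a marker of Purkinje cells in cerebellum that the kidney tubule also expresses, which was higher in kidney. None of the markers was a member.

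In all, 2750 genes (9.6% of those with an identifier) reached 5 RPKM in every tissue, and the 725 members were 26.4% of these and 2.53% of all genes. Since the rule used these values, the shares only describe its outcome. Among members the ratio ran from 1.08 to 2.00, with quartiles of 1.51, 1.70 and 1.85, and 171 members had a ratio of 1.5 or less. The median over all 2750 genes was 2.67, and 232 of the 2025 uneven genes (those above the ratio of 2) differed by more than 10-fold between tissues. The largest ratio, 322, belonged to MBP, the myelin basic protein. The distribution was continuous at the threshold, with 122 members between 1.9 and 2 and 101 uneven genes between 2 and 2.1.

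Counting error was small for most members. The lowest read number of a member over the tissues had a median of 1158 and a minimum of 79. The 95% upper counting bound of the ratio was 2 or less for 556 members and above 2 for 169. Conversely, 141 uneven genes had a lower bound of 2 or less.

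**Figure D1:**
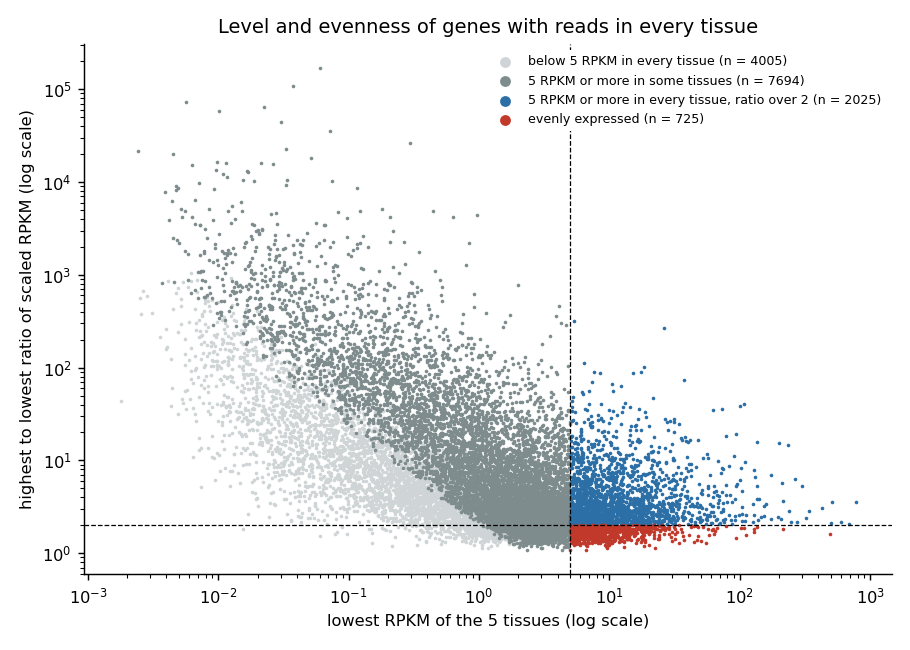
Each point is a gene with reads in all 5 tissues, placed by its lowest RPKM (horizontal, log scale) and its highest to lowest ratio of scaled RPKM (vertical, log scale), with dashed lines at 5 RPKM and at the ratio of 2. The 725 members fill the lower right corner and are contiguous with the 2025 uneven genes above the line.

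Evenness was a property relative to the scaling. The deposited RPKM of members was lowest in heart for 687 of 725 genes (94.8%), against 39.5% of uneven genes. Heart had the lowest upper quartile, so a low scaled ratio by itself places the deposited RPKM lowest in heart. The contrast with uneven genes therefore follows largely from the rule and is a description only. The median member stood at 15.6, 16.8, 18.9, 8.79 and 20.5 RPKM in cerebellum, kidney, lung, heart and spleen. After division by the upper quartile the medians were 2.21, 2.08, 2.12, 2.20 and 2.08 in the same order, so heart was no longer the lowest tissue. Without scaling 490 genes met the rule and 178 of them were members. With median-of-ratios size factors (the median ratio of a library to the geometric mean over libraries) 596 genes met it, of which 523 were members, and with RPKM rescaled to a common sum (TPM) 634 genes met it, of which 376 were members. Only 73 genes met the rule under the upper quartile, no scaling, the median of ratios and TPM alike, a set chosen after the data were seen. The heart library had the smallest share of reads on transcripts, and its part in these shifts was not tested.

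B4GALT3, a galactosyltransferase of the Golgi apparatus (chromosome 1, 139780160 to 139786714, rheMac2), had the lowest ratio. Its RPKM was 12.2, 13.9, 15.9, 6.57 and 16.9 in cerebellum, kidney, lung, heart and spleen. On the scaled values these became 1.73, 1.72, 1.78, 1.65 and 1.72, a ratio of 1.08 with a counting interval of 0.999 to 1.17. The gene was picked for its low ratio, and lung and heart as its highest and lowest tissues. The interval is therefore a description and no test of equal levels.

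RUVBL2, an ATPase of chromatin remodelling complexes (chromosome 19, 55277481 to 55299777), followed with a ratio of 1.096. It had 8.78, 9.97, 11.7, 5.02 and 11.8 RPKM in cerebellum, kidney, lung, heart and spleen. The gene was also the member closest to the minimum of 5 RPKM in heart. WBP11, a splicing factor (chromosome 11, 15151774 to 15170083), had a ratio of 1.14, and its RPKM was 15.6, 18.1, 22.6, 9.66 and 23.9 in the same order of tissues.

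Other members of the 10 most even genes covered protein degradation and vesicle transport. RNF167, a ubiquitin ligase of the endosome and lysosome, had a ratio of 1.146 at 22.2 to 48.7 RPKM, and PSME3, a proteasome activator subunit, had a ratio of 1.16 at 9.63 to 25.8 RPKM. ARCN1 and COPZ1 encode the delta and zeta subunits of the COPI coat and are described with it below. DCAF5, a substrate receptor of cullin ligases, and UBAP2L, a protein of stress granules, had ratios of 1.199 and 1.201. The remaining gene, ENSMMUG00000017642 on chromosome 19 (13435719 to 13446658), had no symbol in the table used and a ratio of 1.19. In all of these genes the deposited RPKM was lowest in heart, which their low scaled ratios required.

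**Figure D2:**
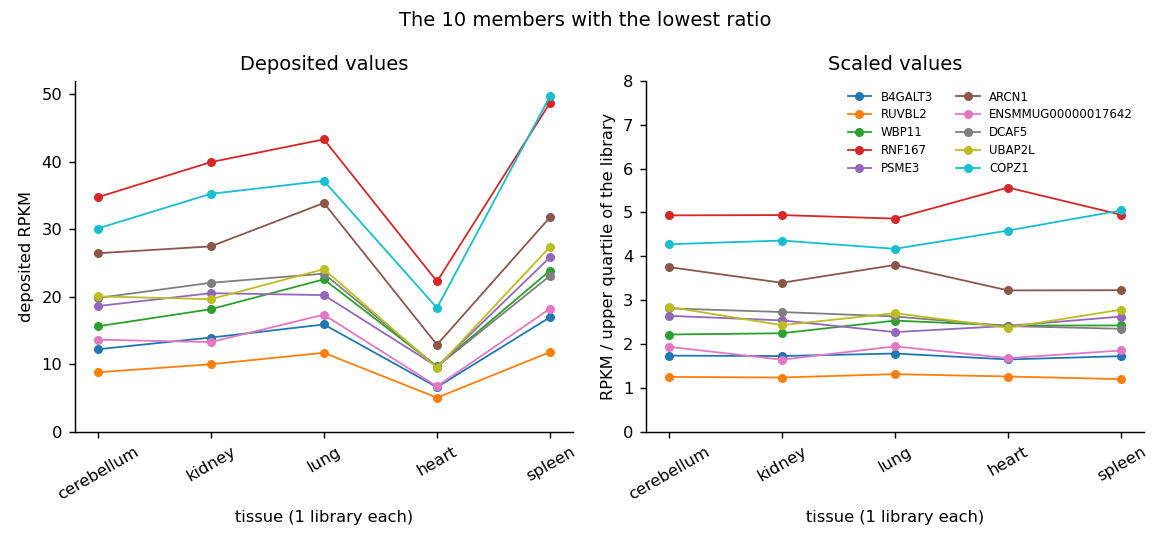
RPKM as deposited (left) and divided by the upper quartile of each library (right) for the 10 members with the lowest ratio, 1 line per gene and 1 point per library. On the left every gene dips in heart, and on the right the lines run level, with B4GALT3 between 1.65 and 1.78. Both patterns follow from choosing genes with low scaled ratios, since heart had the lowest upper quartile.

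The members were mostly of moderate level. The lowest RPKM of a member had a median of 8.73, with 156 members between 5 and 6 RPKM, 90 at 20 or more and 8 at 100 or more. By mean RPKM over the tissues, members were 37.8% of the 246 genes at 5 to 10 RPKM, 35.0% at 10 to 20, 21.4% at 20 to 50, 11.7% at 50 to 100 and 7.61% of the 197 genes at 100 or more. The rule used these values, and a low mean with a minimum of 5 RPKM bounds the ratio. By the lowest RPKM, members were 29.8% of genes at 5 to 10 RPKM, 25.03% at 10 to 20, 20.1% at 20 to 50, 13.5% at 50 to 100 and 15.1% at 100 or more, and nothing is read from either series.

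UBB, a polyubiquitin gene that supplies free ubiquitin (chromosome 16, 16077944 to 16078714), was the most abundant member. It had 585, 958, 682, 495 and 830 RPKM in cerebellum, kidney, lung, heart and spleen, with a ratio of 1.62. Its scaled level was highest in heart and lowest in lung. RPL30, a protein of the large ribosomal subunit, had 128, 176, 219, 131 and 331 RPKM in cerebellum, kidney, lung, heart and spleen. Its scaled level was highest in spleen and lowest in cerebellum, with a ratio of 1.84.

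EEF2, the elongation factor that moves the ribosome along the messenger RNA, was also abundant, with 119, 143, 143, 93.7 and 174 RPKM in cerebellum, kidney, lung, heart and spleen. It was named after its values were seen, as an abundant gene among the 73 that met the rule under all 4 scalings, with ratios of 1.46 by upper quartile, 1.85 without scaling, 1.87 by median of ratios and 1.27 by TPM.

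At the thresholds, VTI1B, a SNARE protein, and UBE2E1, a ubiquitin-conjugating enzyme, were kept with a ratio of 2.00, as was ENSMMUG00000030827. ENSMMUG00000011937, BAP1, a deubiquitinase, and PSMC5, a proteasome ATPase, were left out at ratios that also round to 2.00. VTI1B had 13.7, 17.2, 12.3, 7.50 and 10.5 RPKM in cerebellum, kidney, lung, heart and spleen, and PSMC5 had 29.2, 30.2, 21.1, 11.2 and 20.4 RPKM. The counting intervals of both spanned 2, at 1.92 to 2.09 for VTI1B and 1.901 to 2.11 for PSMC5. SAFB, a nuclear matrix protein with a ratio of 1.45, fell just short of the minimum with 4.99 RPKM in heart, as did JAGN1 with 4.97 and ENSMMUG00000007739 with 5.00 after rounding. The heart minimum alone kept out 433 genes with a ratio of 2 or less.

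Within the factor of 2 the tissues still differed. The highest scaled value of a member fell in heart for 223 members, in cerebellum for 179, in spleen for 124, in lung for 101 and in kidney for 98. The lowest fell in cerebellum for 162, in kidney and in spleen for 159 each, in lung for 137 and in heart for 108. Heart was thus highest for 30.8% and lowest for 14.9% of members, against 40.5% and 8.74% of uneven genes. In cerebellum, kidney, lung and spleen, 20.2%, 14.3%, 10.5% and 14.4% of uneven genes were highest. In the same order 29.0%, 15.6%, 19.0% and 27.8% of them were lowest. The share highest in heart was 30.8% by upper quartile and 34.1% by median of ratios, but 8.98% without scaling and 12.8% by TPM, so the order of tissues depended on the scaling. Lung and spleen were the closest pair, with a median difference of 1.16-fold among members, and the other 9 pairs ranged from 1.21-fold to 1.29-fold. Among uneven genes lung and spleen were also the closest, at 1.304-fold. These tissues also shared the highest summed level of the macrophage markers CD68, CD163 and MARCO, 77.3 RPKM in lung and 128 in spleen against 1.36 to 5.48 elsewhere, and the part of shared cell types was not tested.

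The members nearest to being tissue-biased stood at the edge of the rule. ANKRD11, a chromatin regulator, had the largest share of its scaled level in cerebellum (31.0%). DNAJA1, a co-chaperone, and NBR1, an autophagy receptor, leaned to kidney with 31.95% and 29.9%. PAIP1, a partner of the poly(A)-binding protein, leaned to heart with 31.4%, with 11.6, 13.1, 16.2, 12.3 and 15.99 RPKM in cerebellum, kidney, lung, heart and spleen. FUBP1, a regulator of MYC transcription, leaned to spleen with 30.8% and reached 29.2 RPKM there against 7.70 to 14.1 elsewhere.

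With upper quartile scaling, the vesicle coats had the highest share of members of any list with more than 1 gene at the minimum. COPI carries cargo within the Golgi apparatus and back to the endoplasmic reticulum, and COPII carries it out of the endoplasmic reticulum. Of 18 coat genes found, 9 reached 5 RPKM everywhere and all 9 were members, against 26.4% of all such genes, with a median ratio of 1.52 against 2.67. These lists were drawn up with earlier results of these data known, and the counts carry no test. The count of coat genes was 8 of 9 by median of ratios, 3 of 9 by TPM and 1 of 9 without scaling. In the same order 21.7%, 23.1% and 17.8% of all genes at the minimum met the rule. With the minimum lowered to 1 RPKM, 10 of 16 coat genes met the rule (62.5% against 22.8% of all genes).

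ARCN1 (chromosome 14, 116968099 to 117003232) had 26.4, 27.4, 33.9, 12.9 and 31.8 RPKM in cerebellum, kidney, lung, heart and spleen. COPZ1 (chromosome 11, 51451799 to 51463468) had 30.1, 35.2, 37.1, 18.3 and 49.7 RPKM in the same order. Scaled, the ratios were 1.18 for ARCN1 and 1.21 for COPZ1, with counting intervals of 1.13 to 1.23 and 1.17 to 1.26. The outer coat subunit COPA had 32.3, 25.1, 33.5, 13.9 and 31.5 RPKM and a ratio of 1.48. At the other end, SEC31A, of the COPII outer coat, had 15.0, 28.7, 32.7, 12.4 and 31.4 RPKM and a ratio of 1.72. SEC13, which COPII shares with the nuclear pore, had 9.14, 20.9, 15.9, 7.46 and 15.0 RPKM and a ratio of 1.99, and was lowest in cerebellum on the scaled values. SEC13 was also the only gene of 23 found nuclear pore genes at 5 RPKM in every tissue.

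Genes of later sorting steps, in the retromer, ESCRT and exocyst list, showed 7 members among the 12 at the minimum. This was 58.3%, against 26.4% of all genes. VPS26A and VPS29 are subunits of retromer, which returns receptors from endosomes, and TSG101 belongs to the ESCRT machinery that buds vesicles into endosomes. VPS26A and TSG101 both had a ratio of 1.29. VPS26A had 11.04, 13.1, 18.02, 7.32 and 17.2 RPKM in cerebellum, kidney, lung, heart and spleen, with heart the lowest deposited value. HGS (2.41) and VPS4A (2.95) had the largest ratios, both highest in cerebellum. The count was 4 by median of ratios (33.3% against 21.7%), 6 by TPM (50% against 23.1%) and 3 without scaling (25% against 17.8%).

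Among the genes of pre-mRNA splicing, 8 of the 14 spliceosome genes at the minimum were members (57.1% against 26.4% of all genes). EFTUD2, the GTPase of the U5 particle, was the most even with a ratio of 1.23 and 10.8, 10.8, 12.2, 6.56 and 15.4 RPKM in cerebellum, kidney, lung, heart and spleen. SNRNP70, of the U1 particle, was the most abundant member of the list, with 92.2, 107, 100, 28.9 and 116 RPKM and a ratio of 1.83. SF3B2 and SF3B3, of the U2 particle, had ratios of 1.63 and 1.69, whereas SF3B1 of the same particle had a ratio of 5.59 and 10.6, 40.5, 56.1, 11.4 and 82.9 RPKM. Cerebellum and heart were the low tissues of SF3B1 in deposited RPKM. The count was 9 by median of ratios (64.3% against 21.7%), 3 by TPM (21.4% against 23.1%) and 1 without scaling (7.14% against 17.8%).

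In transcription and RNA decay the lists were small at this minimum. RNA polymerase II had 3 members of 7, namely POLR2H (1.80), POLR2G (1.84) and POLR2C (1.87), and Mediator had 2 of 4, MED29 (1.83) and MED25 (1.84). The CCR4-NOT deadenylase and the RNA exosome had 3 of 5, with CNOT7 at 1.41, EXOSC1 at 1.71 and CNOT1 at 1.88. For RNA polymerase II the count was 0 of 7 by median of ratios, 4 by TPM and 2 without scaling. For Mediator it was 1 of 4, 2 and 1 in the same order of scalings, and for CCR4-NOT and the exosome it was 2 of 5 under each. By upper quartile the shares of these lists were 42.9%, 50% and 60%, against 26.4% of all genes. The other scalings gave 21.7%, 23.1% and 17.8% of all genes in that order.

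Translation initiation factors had 12 members among 24 genes at the minimum (50% against 26.4% of all genes). EIF2S2, the beta subunit of the factor that brings the initiator tRNA, was the most even at 1.247, with 9.86, 9.08, 12.3, 5.51 and 11.3 RPKM in cerebellum, kidney, lung, heart and spleen. EIF2S3, the gamma subunit, had a ratio of 1.42. The scaffold EIF4G1 (2.68) and its relative EIF4G2 (3.14) had the largest ratios of the list. The EIF3 complex, which holds the small ribosomal subunit, divided: EIF3K, EIF3B, EIF3C, EIF3I, EIF3A and EIF3L were members at 1.42 to 1.98, and EIF3G, EIF3H, EIF3D, EIF3M, EIF3F, EIF3J and EIF3E had ratios of 2.03 to 2.37. The count was 11 by median of ratios (45.8% against 21.7%), 13 by TPM (54.2% against 23.1%) and 4 without scaling (16.7% against 17.8%).

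The enzymes that charge tRNAs had 4 members of 11 (36.4% against 26.4% of all genes), from TARS1 (1.39) to IARS1 (1.94). AARS1 (3.94) and FARSB (5.57) were the most uneven. The count was 3 by median of ratios (27.3% against 21.7%), 5 by TPM (45.5% against 23.1%) and 4 without scaling (36.4% against 17.8%). Of the cytosolic ribosome, 5 of 24 genes at the minimum were members, 20.8% against 26.4% of all genes. The count was 6 of 24 by median of ratios, which is above the 21.7% of all genes, 2 by TPM and 0 without scaling. The members by upper quartile were RPL22 (1.53), RPLP2 (1.76), RPL30 (1.84), RPL4 (1.86) and RPS3 (1.98). Spleen was the highest tissue for 17 of the 24 by upper quartile, and for 15 to 22 under the other scalings. By upper quartile spleen was highest for 17.1% of all members and 14.4% of uneven genes. Without the spleen library 13 of 24 met the rule (54.2% against 33.8% of all genes), without cerebellum 8 of 24 (33.3% against 38.4%) and without heart 5 of 28 (17.9% against 45.5%). The leukocyte marker PTPRC stood at 148 RPKM in spleen, 30.3 in lung and 0.19 to 1.73 elsewhere, and its part in the spleen values was not tested. Reads of ribosomal genes can be shared with processed copies, so their counts are uncertain.

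The cytosolic chaperonin CCT, a ring of 8 different subunits that folds actin and tubulin, had all its subunits at 5 RPKM in every tissue. Of these subunits 5 were members (62.5% against 26.4% of all genes). CCT2 was the most even at 1.43, with 33.3, 37.0, 29.5, 17.6 and 42.1 RPKM in cerebellum, kidney, lung, heart and spleen. CCT6A (1.48), CCT3 (1.56), CCT8 (1.70) and CCT4 (1.87) were the other members. CCT7 (2.03), TCP1 (2.55) and CCT5 (3.30) were not, and CCT5 had 7.68 RPKM in cerebellum against 14.4 to 19.2 elsewhere. The scaled level was lowest in lung for 7 of the 8 subunits, against 18.9% of all members and 19.0% of uneven genes. The subunits of this particle were thus unequal in RNA ratio. The lung was lowest for 7 of 8 by median of ratios too, but for 4 by TPM and for none without scaling. The count of members was 3 by median of ratios (37.5% against 21.7%), 6 by TPM (75% against 23.1%) and 2 without scaling (25% against 17.8%).

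The proteasome, which degrades ubiquitinated proteins, had 10 members among 20 genes at the minimum (50% against 26.4% of all genes). PSMD11, of the regulatory lid, had 10.02, 8.94, 12.1, 6.30 and 12.5 RPKM in cerebellum, kidney, lung, heart and spleen and a ratio of 1.43. PSMB1, of the catalytic core, had 16.9, 24.4, 22.6, 13.7 and 24.2 RPKM and the same ratio of 1.43. The largest ratios were those of PSMC3 (2.89) and PSMB5 (3.87), a catalytic subunit. On the scaled values 16 of the 20 genes were highest in heart, against 30.8% of all members and 40.5% of uneven genes. The number was 17 by median of ratios, but only 2 by TPM and 0 without scaling. This list moved with the scaling in the opposite way to the coats, with 3 of 20 by median of ratios, 17 by TPM and 16 without scaling, where all genes gave 21.7%, 23.1% and 17.8%.

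Upstream of the proteasome, the list of cullins, ubiquitin-conjugating enzymes and the COP9 signalosome had 7 members of 21 (33.3%), near the 26.4% of all genes. The count was 4 by median of ratios (19.0% against 21.7%), 7 by TPM (33.3% against 23.1%) and 8 without scaling (38.1% against 17.8%). UBE2K (1.47), CUL1 (1.49), UBE2L3 (1.502) and CUL3 (1.63) led, followed by COPS7B (1.83), the activating enzyme UBA1 (1.84) and UBE2V1 (1.97). GPS1 (3.96) and UBE2B (5.56) were the most uneven.

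No gene of the respiratory chain list was a member. The respiratory chain and ATP synthase, which make the ATP that a beating heart uses, had 31 genes at 5 RPKM in every tissue and no member, with ratios from 4.11 (NDUFB8) to 37.9 (ATP5MC1) and a median of 9.83. All 31 were highest in heart by upper quartile, median of ratios and TPM, and 28 were without scaling. By upper quartile 30.8% of all members and 40.5% of uneven genes were highest in heart. ATP5MC1 had 23.3, 28.1, 12.7, 217 and 15.3 RPKM in cerebellum, kidney, lung, heart and spleen. The count was 0 under each of the scalings tried, where 17.8% to 26.4% of all genes met the rule. It was also 0 with a ratio of up to 3 (58.1% of all genes) and with the minimum at 1 RPKM (22.8%). Without heart, cerebellum or spleen it was 0 too, against 45.5%, 38.4% and 33.8% of all genes. The mitochondrial ribosome had 3 members of 24, MRPL49 (1.58), MRPL9 (1.80) and MRPS31 (1.904), and 22 of the 24 genes were highest in heart, compared with 23 by median of ratios, 8 by TPM and 7 without scaling. The count of even genes of the mitochondrial ribosome turned with the scaling, from below the share of all genes by upper quartile and by median of ratios (1 of 24) to above it by TPM (8 of 24, 33.3% against 23.1%) and without scaling (10 of 24, 41.7% against 17.8%). The V-ATPase, the proton pump of lysosomes, had 0 of 6 (against 26.4% of all genes), from ATP6AP1 (2.87) to ATP6V1B2 (6.32). Its count was also 0 under the other scalings, with the minimum at 1 RPKM and without spleen. It was 1 of 6 with a ratio of up to 3 (58.1% of all genes). Without heart it was 1 of 7 (45.5% of all genes) and without cerebellum 1 of 6 (38.4%).

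**Figure D3:**
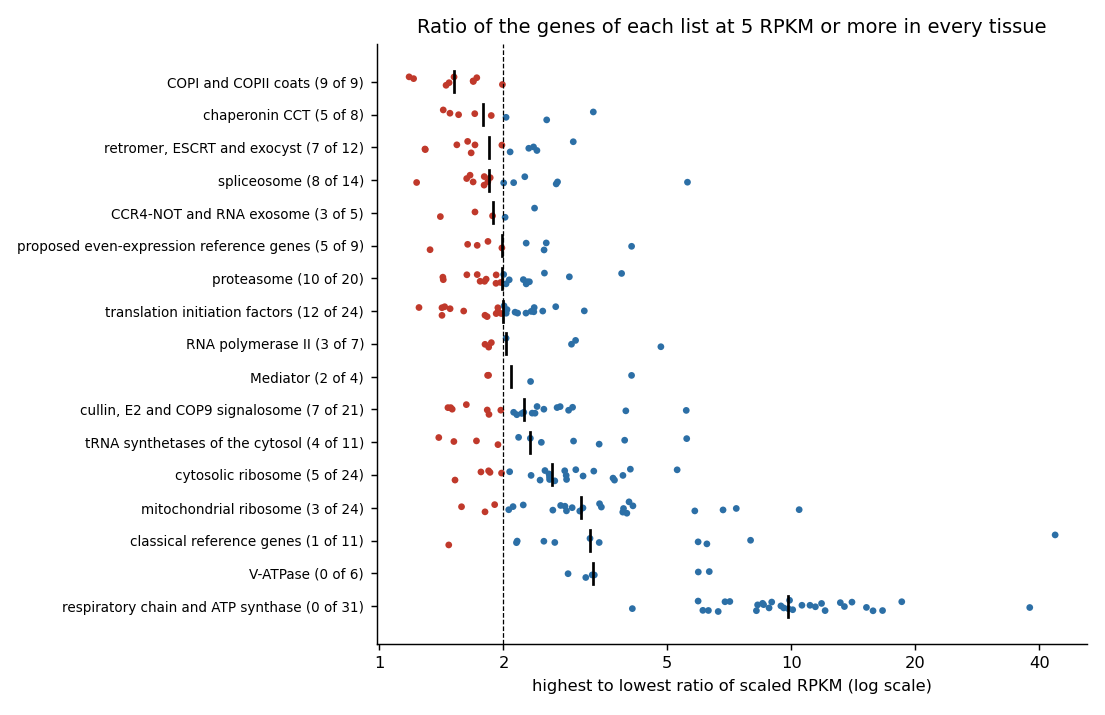
Highest to lowest ratio of scaled RPKM (log scale) for the genes of each list that reached 5 RPKM in every tissue, with members in red, uneven genes in blue, black bars at list medians and a dashed line at 2. Lists with fewer than 4 such genes are left out, and labels give members of genes at the minimum. The COPI and COPII genes all lie at 1.99 or below, and the respiratory chain genes all lie at 4.11 or above.

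Reference genes used for normalization fell on both sides of the rule. Of the classical ones, 11 reached 5 RPKM in every tissue and 1 was a member (9.09% against 26.4% of all genes). The count was 1 by median of ratios (9.09% against 21.7%), 1 by TPM (9.09% against 23.1%) and 2 without scaling (18.2% against 17.8%). Among the classical ones, HPRT1, an enzyme of purine salvage, was just outside with a ratio of 2.15. In cerebellum, kidney, lung, heart and spleen, GAPDH had 773, 706, 270, 673 and 266 RPKM and a ratio of 6.24. EEF1A1, an elongation factor, had a ratio of 7.96, and TUBB, a tubulin, had 43.7 with 160 RPKM in cerebellum and 5.12 to 15.3 elsewhere. GAPDH, a glycolytic enzyme, was low in lung and spleen in deposited RPKM. The gene carrying the symbol ACTB was listed at 1.22 to 6.92 RPKM and missed the minimum, and reads shared with its near-identical copies are uncertain.

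Genes proposed elsewhere as evenly expressed references gave 5 members of 9 (55.6% against 26.4% of all genes). RAB7A, a GTPase of late endosomes, had 77.0, 73.1, 94.5, 44.8 and 83.2 RPKM in cerebellum, kidney, lung, heart and spleen and a ratio of 1.33. VPS29 (1.64), PSMB2 (1.73), REEP5 (1.83) and CHMP2A (1.98) were the others, and GPI (4.09), a glycolytic enzyme, was the most uneven. A further gene of that list appeared under the name C1H1orf43 and was also a member, as seen after the values. The count was 5 without scaling (55.6% against 17.8%), 2 by median of ratios (22.2% against 21.7%) and 8 by TPM (88.9% against 23.1%).

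In total, 81 members belonged to the lists and 644 did not. The study concerns RNA editing, mostly the change of adenosine to inosine in transcripts, although its site in NOL11 is a change of C to T. Of 23 genes that host its verified coding sites, 6 reached 5 RPKM in every tissue and 2 were members, against 2.53% of all genes and 26.4% of those at the minimum. The members were COPA and, at the site named for ARIH2, the gene ENSMMUG00000010571, which had no symbol. ENSMMUG00000010571 had 7.66, 8.54, 10.8, 7.50 and 9.32 RPKM in cerebellum, kidney, lung, heart and spleen and a ratio of 1.99.

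Length and position were not used by the rule. Members had a median exon length of 1868 bp (95% interval of the median 1763 to 1965), against 1604 bp (1554 to 1670) in uneven genes and 2334 bp in the 8531 genes at 5 RPKM in some tissues only. The median genomic span was 14932 bp (13520 to 16633) in members, 10952 bp in uneven genes and 21422 bp in genes at the minimum in some tissues. RPKM divides by exon length, so the length is part of the value that chose the genes. By upper quartile, members were 18.1%, 27.4%, 30.3% and 29.7% of the genes in the quartiles of exon length from short to long. Genes are not replicates and no test was made. The direction of the exon length difference depended on the scaling. By median of ratios the even genes had 2058 bp and the uneven genes 1588.5 bp, but without scaling the medians were 1489.5 and 1734 bp, and by TPM 1594.5 and 1703.5 bp. The span was longer in even genes under all 4 scalings, with medians of 12372 and 12121.5 bp without scaling as the closest.

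Members with a long span were few. Only 26 members (3.59%) spanned more than 100 kb, compared with 4.59% of uneven genes and 13.0% of genes at the minimum in some tissues. SND1, a nuclease linked to RNA silencing, had the largest span, 440677 bp on chromosome 3 (165201751 to 165642427), for an exon length of 3806 bp. PLEC, the cytoskeletal linker plectin, had the largest exon length, 14636 bp, followed by MPRIP with 11760 bp and KIAA0232 with 7876 bp. PLEC had 16.1, 21.3, 37.3, 18.05 and 28.0 RPKM in cerebellum, kidney, lung, heart and spleen. On the scaled values it was lowest in cerebellum and highest in heart, with a ratio of 1.97. The shortest models were ENSMMUG00000030827 with 233 bp, a model named SNORD52 with 260 bp and the PSMD13 model with 277 bp of exon.

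**Figure D4:**
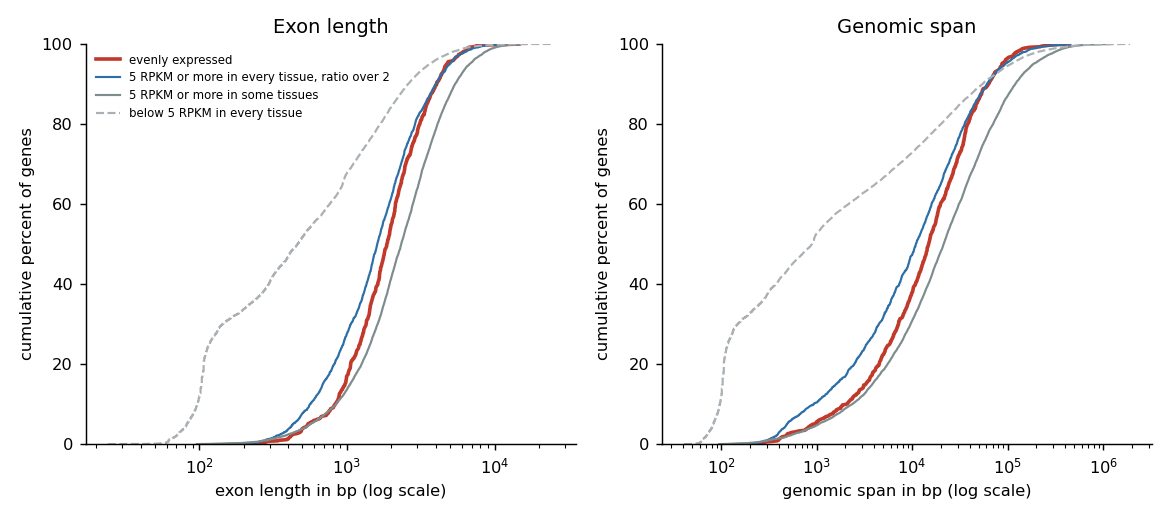
Cumulative percent of genes by exon length (left) and genomic span (right), both in bp on a log scale, for members, uneven genes, genes at 5 RPKM in some tissues and genes below it everywhere. By upper quartile scaling, the member curve lies between the uneven genes and the genes at the minimum in some tissues, with medians of 1868, 1604 and 2334 bp of exon.

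The median deviation of a tissue among members also differed with exon length. In members of the shortest quartile (up to 1007 bp) the median log2 deviation from the gene's own mean was 0.21 in heart and -0.14 in cerebellum and lung. In the longest quartile it was -0.04 in heart, 0.05 in cerebellum and 0.05 in lung. The heart deviation fell through the quartiles at 0.21, 0.14, 0.05 and -0.04. For these genes another scaling would move all quartiles of a tissue by the same amount. RNA integrity by library is not given beyond a common minimum, and its part in this pattern was not tested.

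A group of 43 members (5.93%) had a single exon, compared with 9.83% of uneven genes. Only 6 of them (13.95%) had a symbol, against 83.7% of the other members, and their median length was 771 bp. They were 4 of the 5 members with the highest minimum, among them UBB, ENSMMUG00000029087 at 216 to 590 RPKM and ENSMMUG00000021980 at 135 to 449 RPKM. Their scaled level was highest in heart for 18 and in spleen for 17 of the 43, against 30.8% and 17.1% of all members. This was counted by upper quartile only. Models without introns can share reads with near-identical copies elsewhere in the genome, so these values are uncertain.

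The members lay on every chromosome that held genes at the minimum. Chromosome 1 held the most, 87 (12% of members), followed by chromosome 19 with 57, chromosome 10 with 53 and chromosome 14 with 51. As a share of the genes at 5 RPKM everywhere, chromosome 10 had the highest value, 35.3% of 150 (Wilson interval 28.1 to 43.3%), and chromosome 18 the lowest, 2 of 26 or 7.69% (2.14 to 24.1%). For chromosome X the share was 22.4% of 98 (15.3 to 31.7%). Apart from chromosomes 10 and 18, every interval included 26.4%. No gene of the mitochondrial genome was at the minimum among the 38 listed. How reads of that genome were handled is not described, so low levels of its transcripts are not read from this.

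**Figure D5:**
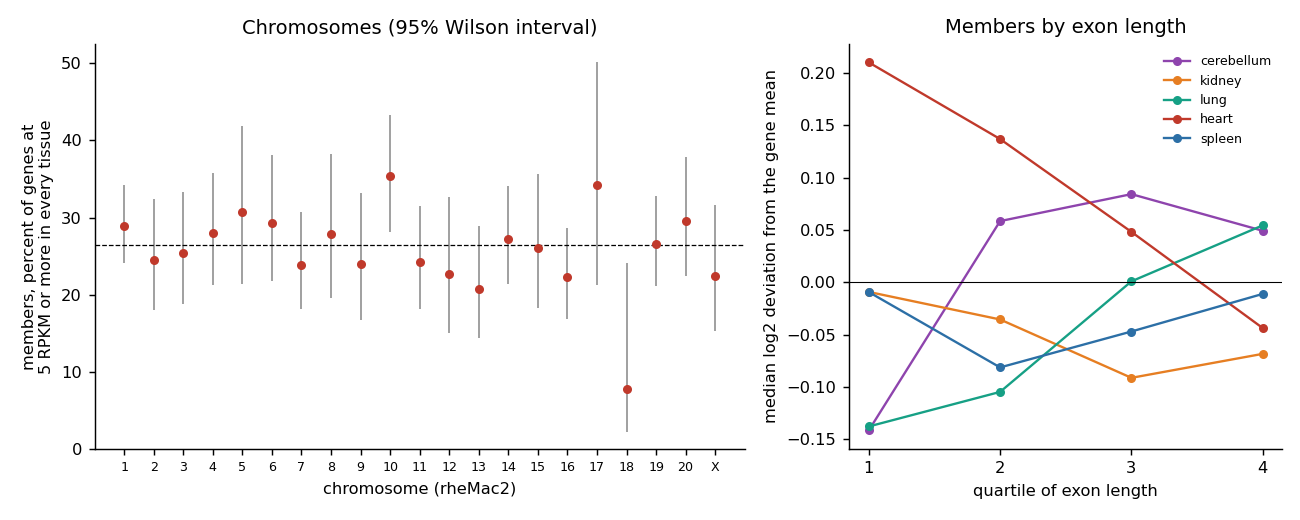
Left, members as a percent of genes at 5 RPKM or more in every tissue for each rheMac2 chromosome, with a dashed line at 26.4%. The 95% Wilson intervals treat genes as independent draws. Right, median log2 deviation of members from their own mean over tissues by quartile of exon length, where heart goes from 0.21 in the shortest quartile to -0.04 in the longest.

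Neighbouring genes were compared by position, with no test. The nearest gene at the minimum was itself a member for 191 of 725 members (26.3%) and for 506 of 2025 uneven genes (24.99%). The median distance between gene midpoints was 104316 bp and 121240 bp. A member overlapped another gene in 26.9% of cases, compared with 23.5% of uneven genes.

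Other transcripts of the same genes were counted too, although they can carry the same reads. The same counts were not made for uneven genes, so nothing is read from them. A total of 390 members had 728 further transcripts, of which 463 met both criteria, 53 reached 5 RPKM everywhere with a ratio above 2 and 212 fell below 5 RPKM in at least 1 tissue. In 219 of the 390 genes every transcript met the rule.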

How the data were processed

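The series held 1 poly(A)-positive, strand-specific RNA-Seq library for each of 5 macaque tissues. The authors deposited, for 51763 transcripts of revised gene models, read counts that were not normalized and RPKM values scaled to exon length and properly mapped reads. Each RPKM could be recomputed from its deposited read count. The submitters' processing notes name TopHat 1.2.0, the paper names BWA, rheMac2 and Ensembl transcripts, and the counting tool is not given in the sources used here. Reads can be shared between overlapping transcripts, so counts of genes that overlap are uncertain.

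Groups came from the tissue labels. Genes were the 28633 identifiers of the Ensembl macaque type, of which 15556 had a symbol in the table used, made for a later annotation. At 18 of the 23 positions of genes that host edited sites, the gene in the files carried the expected symbol, and at 0 it carried another symbol only. Starts were counted from 1. The 5 RPKM minimum was applied to deposited RPKM. Ratios carry exact 95% binomial intervals for 2 counts, which cover read-counting error only. Shares carry Wilson intervals and medians carry intervals from ranked values, and both treat genes as independent draws. No test was possible with 1 library per tissue. Named genes were the 10 most even members, those at the extremes of level, length, span and tissue share, those next to each threshold, members that host edited sites, and in each list the genes with the lowest and highest ratios. Further members of each list and EEF2 were named after their values were seen. A few genes of the lists are not reported here. The members, lists and rules were chosen with earlier results of these data known.

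Python 3.11.15, pandas 2.3.3, numpy 2.4.6, scipy 1.17.1 and matplotlib 3.10.9 were used. The scripts were tested on simulated data. Alternatives covered the minimum, the ratio, the scaling, a pseudocount, the transcript chosen and leaving out each tissue.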

Additional observations from a re-analysis of the deposited data

Results flagged for a closer look

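Transcripts without a gene identifier were outside the rule, and 8 of them met its level and ratio criteria. They drew attention because their signal lies outside the genes described. Of 8057 such transcripts, 76 reached 5 RPKM in every tissue, so the 8 were 10.5% of these. None overlapped a member, 2 overlapped a gene and 6 overlapped none. IMMRT10000146632 on chromosome 6 (93866648 to 93870522) was the most even, with 93.2, 136, 118, 74.6 and 156 RPKM in cerebellum, kidney, lung, heart and spleen and a ratio of 1.41.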

How the results depend on the processing

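The number of members, 725, was 1798 with a minimum of 1 RPKM, 287 with a minimum of 10, 1985 with no minimum, 171 with a ratio of at most 1.5, 1599 with at most 3, 1195 without cerebellum, 1846 without heart and 1255 with every transcript counted on its own. The other 12 alternatives stayed within 1.5 times of 725, from 490 to 1068, but the genes differed: without scaling 178 of the 490 were members. The alternatives on the counting bound, on genes with a symbol and on the 73 genes even under all scalings were chosen after seeing the data.

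The median exon length of 1868 bp was 2138.5 with a minimum of 1 RPKM, 1650 with a minimum of 10, 1976 with a ratio of at most 1.5, 1757 with at most 3, 1489.5 without scaling, 2058 by median of ratios, 1594.5 by TPM and 2013 in genes with a symbol. The median span of 14932 bp was 18448.5, 12678, 16808, 12372, 13487 and 18159 bp with the minimum of 1, the minimum of 10, the ratio of 1.5, no scaling, TPM and genes with a symbol. The share on chromosome 1 kept within its Wilson interval in all 7 alternatives.

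The median log2 deviations of 0.04, -0.06, -0.04, 0.08 and -0.04 in cerebellum, kidney, lung, heart and spleen were -0.0088, 0.072, 0.019, -0.23 and 0.15 without scaling. By TPM they were 0.14 in cerebellum, -0.021 in kidney, -0.13 in heart and 0.026 in spleen, and by median of ratios -0.14 in lung and 0.15 in heart. The share of members highest in heart, 30.8%, was 8.98% without scaling and 12.8% by TPM, and the share lowest in cerebellum, 22.3%, was 13.9% by TPM. The causes were not tested. No paired analysis was possible because each tissue had 1 library. Promoter motifs and head-to-head gene pairs were not run, since strand and promoter sequence were not used here. Depth limits the ratio by counting for the 169 members whose upper bound passed 2.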

Other observations

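Families of symbols picked after the member list had been seen are given here as values only, beside the 26.4% of all genes at the minimum. They were counted by upper quartile only, and some families counted are not reported here. Heterogeneous nuclear ribonucleoproteins, which package pre-mRNA, had 9 members of 14 genes at the minimum, among them HNRNPH2 (ratio 1.297), HNRNPA2B1 (1.34) and HNRNPL (1.501), while HNRNPF had a ratio of 4.09. The signal recognition particle and its receptor, which bring ribosomes to the endoplasmic reticulum, had 5 of 7, led by SRP54 (1.31). The synthesis of GPI anchors, the lipid tails of some surface proteins, had only 5 of 21 found genes at the minimum. All 5 were members, from GPAA1 (1.48) to PIGT (1.95). Karyopherins, the carriers through nuclear pores, had 6 of 11, from KPNA6 (1.54) to KPNA3 (1.94). RAB GTPases, which direct vesicles, had 40 genes found and 6 members of 14 at the minimum, with RAB7A and RAB1B both at 1.33. DEAD and DEAH box helicases had 3 of 9 (33.3%), near the share of all genes. Solute carriers, which move small molecules across membranes, had 315 genes found and 18 at the minimum. Of these only SLC35A4 (1.78) was a member, and their median ratio was 4.60.

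The 73 genes that met the rule under all 4 scalings made up 10.1% of the members, and 64 had a symbol. RALY, a ribonucleoprotein, had the smallest of the largest ratios over the scalings, 1.72, with 39.0, 48.9, 53.7, 31.8 and 54.8 RPKM in cerebellum, kidney, lung, heart and spleen. Next came TMEM219 (1.74), MAGED2 (1.78) and the heat shock transcription factor HSF1 (1.78). The lists contributed PSMB1, PSMB2 and PSMD11 of the proteasome, MRPL49 and RARS1, and no gene of the COPI and COPII coats.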
